A study of Mus musculus with 18 samples.

Results

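The 42 genes described here are antiviral interferon-stimulated genes that lie outside the large paralog families of this response (the Ifit, Oas, Gbp, Slfn and p200 families and the immunity-related GTPases). They were listed by what their products are known to do, by a rule that uses no measured value but with earlier results of these data known, and are 42 of the 21734 protein-coding genes in the table. Each of the 42 was found there and passed the filter on low counts, which kept 11357 genes. RNA was sequenced from bone marrow-derived macrophages (BMDMs), which are grown from marrow in M-CSF and depend on it for survival. The mice were wild type (WT), lacked miR-146a (KO), or carried miR-146a with an exchanged 3′ region and an intact seed (3′F), all of a mixed 129/B6 strain and aged 6 to 7 months, with 3 mice of each genotype. Marrow cells were cultured for 8 to 9 days with 10 ng/ml M-CSF, then received fresh medium without LPS (resting) or with 1 ng/ml LPS and were harvested at 16 h, which gives 6 groups of 3 libraries. Both mutant alleles are germline changes present in every cell of the animal and not only in macrophages, and the mutant lines were kept as separate colonies. The labels do not say whether the resting and LPS cultures that share a replicate number came from one animal. For mass spectrometry, done on another part of the same replicates, the study's methods state a younger mouse age.

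Interferon-stimulated genes are switched on when type I interferon binds its receptor and the signal reaches transcription factors that bind a DNA element in their promoters. LPS, a component of the bacterial outer membrane, acts on macrophages through TLR4, whose TRIF branch induces interferon β and thereby these genes. miR-146a is a microRNA induced by LPS that is known as a brake on TLR signalling, with Irak1 and Traf6 as its classical targets. The comparison of WT, KO and 3′F macrophages asks whether the seed of the microRNA is enough for its function or whether its 3′ region is needed too.

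The mature microRNA of the WT mice (RefSeq, GRCm38.p6, chr11:43374435-43374456, minus strand) and the 5p strand of the study's synthetic 3′F duplex are shown because their difference defines the genotypes. Capitals mark the seed, bases 2 to 8, which both share, and the strands differ at 8 bases, from position 13 to position 20 counted from the 5′ end.
miR-146a-5p, WT: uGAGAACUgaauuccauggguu
miR-146a-5p, 3′F duplex without its overhang: uGAGAACUgaauaagugucc

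Promoter windows from RefSeq (GRCm38.p6, 250 bases before to 50 after each start) were found for 33 of the 42 genes. Mx1, Mx2, Usp18, Dhx58, Zbp1, Parp9, Parp14, Rtp4 and Tor3a had no entry. The letters GAAA, any 2 bases and GAAA again, the core of the interferon-stimulated response element and here called the ISRE-type motif, searched on both strands, were in the window of 13 of the 33 genes (39.4%), against 3.99% of the 27025 genes with a window. A match is a description of letters and not a binding site. Of the 13 genes with the ISRE-type motif, 8 held it before the start and 5 only after it. The upstream bases of Isg15, with 3 overlapping matches in capitals, and 5 sites of 10 motif bases with 10 bases on either side are shown for genes at the high end (Isg15, Rsad2, Ddx60) and in the lower part (Bst2, Apobec3, Tdrd7) of the LPS response below. Each is written on the strand that reads GAAA from its 5′ end.
Isg15 (chr4:156200819-156200918, minus strand, the 100 bases before the start): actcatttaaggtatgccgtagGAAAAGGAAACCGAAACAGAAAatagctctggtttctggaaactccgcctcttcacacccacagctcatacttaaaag
Rsad2 (chr12:26456553-26456582, plus strand): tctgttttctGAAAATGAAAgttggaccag
Ddx60 (chr8:61928058-61928087, plus strand): gagcagaagaGAAACCGAAActatccttca
Bst2 (chr8:71537583-71537612, minus strand): ggcattccagGAAAATGAAActgaaaggct
Apobec3 (chr15:79892258-79892287, minus strand): atcgcaaagaGAAAGGGAAActaactgatg
Tdrd7 (chr4:45972096-45972125, plus strand): gaactttgtgGAAAGAGAAAtaaatccaca

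Among the genes with a window, those with and without the motif covered like ranges of response. In WT the median log2 difference between LPS and resting was 2.46 for the 13 genes with the ISRE-type motif and 2.69 for the 20 genes whose window lacked it, with ranges of 1.17 to 6.28 and 0.60 to 6.12. The 9 genes without a window, which could not be searched, had a higher median of 4.53 and a range of 2.65 to 7.15. The 42 genes lie on 14 chromosomes. 9 of them have another of the 42 within 100 kb, namely Rsad2 with Cmpk2, Phf11b with Phf11d, Mx1 with Mx2, and Parp14, Dtx3l and Parp9. Dtx3l and Parp9 overlap at their ends on opposite strands, and reads were counted by strand. Mx1 and Mx2, and Phf11b and Phf11d, are paralogs, so reads that fit both copies could be missing from or misplaced between them.

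Library totals ran from 4071084 to 19818043 counts, and resting 3′F replicate 3 was the shallowest while it had the most genes with a count (16278, against 12880 to 14235 in the other libraries). Levels are given as CPM, counts scaled to a common, TMM-adjusted library size. Macrophage markers were abundant in every library, with 8 of 8 tested and a summed level from 31282 to 86811 CPM. It was 31282 to 47459 CPM in resting WT, 42073 to 61832 in resting 3′F and 59888 to 61736 in resting KO, and with LPS 44242 to 58510 in WT, 48818 to 59188 in 3′F and 69774 to 86811 in KO. Lyz2, a lysozyme gene, made up 82.1% to 93.1% of that sum in each library. Without Lyz2 the sum was still higher in KO. It was 4821 to 5049 CPM in resting WT, 4286 to 5237 in resting 3′F and 6302 to 6892 in resting KO. With LPS it was 7556 to 9478 CPM in WT, 8403 to 9439 in 3′F and 10436 to 11650.5 in KO. Single markers differed in direction, and some were lower in KO. Itgam, an integrin gene, was at 166, 154 and 129.9 CPM in resting KO, below the 246, 238 and 249.5 CPM of resting WT, and Adgre1, which encodes F4/80, was at 1134 CPM in resting KO replicate 3, below the 1247 to 1868 CPM of resting WT. The T cell list (6 genes) summed to at most 3.37 CPM with Cd3e at 0 throughout, the NK cell list (6) to at most 2.13 with Gzma at 0, and the B cell list (5) to at most 1.17. Stroma (5 genes) summed to at most 5.21 CPM and conventional dendritic cells (4) to at most 3.51. The granulocyte list (6 genes) ran from 12.4 to 63.0 CPM. The plasmacytoid dendritic cell list (5 genes, 3 tested) ran from 69.3 to 127 CPM, nearly all of it Tcf4 (67.4 to 124 CPM), while Siglech, its defining marker, was at most 0.702 CPM. In bulk RNA, fewer expressing cells and less RNA per cell cannot be told apart.

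In resting WT macrophages the 42 genes were mostly expressed at a low but measurable level. Their summed level was 1658, 1947 and 2378 CPM in replicates 1, 2 and 3. Per kb of exon, the median gene stood at 8.11 CPM per kb, and the order ran from Zbp1 at 0.406 CPM per kb to Ifitm3 at 187 CPM per kb. The genes most abundant per length at rest were Ifitm3, Bst2, Lgals3bp, Samhd1 and Znfx1, and the least abundant were Zbp1, Isg20, Mx2, Mx1 and Ddx60. After LPS the sum in WT rose to 14898, 8558 and 23045 CPM and the median to 76.7 CPM per kb, with Ifitm3, Rsad2, Isg15, Bst2 and Cmpk2 at the top. Rsad2, Isg15 and Mx1 held ranks 27, 25 and 39 of 42 at rest and ranks 2, 3 and 7 with LPS.

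LPS raised 41 of the 42 genes in WT and none fell, where 16.3% of all tested genes were called higher (edgeR's quasi-likelihood test, Benjamini-Hochberg adjusted p under 0.05). The median log2 difference of the 42 was 2.88, against −0.02 to 0.02 over all tested genes in each comparison. Trim25 was the gene not called, at 0.60 ± 0.22 (SE, adjusted p = 0.0534). In 3′F, 41 of 42 rose too (median 3.01, 17.2% of all genes called higher) and the one not called was Ifi44, at 4.71 ± 1.8 (SE, adjusted p = 0.0561). By role, the median WT difference was 4.25 for the 4 genes of the ISG15 system, 3.82 for the 10 direct effectors, 3.41 for the 7 sensors, 2.75 for the 13 regulators and other induced genes, 2.69 for the ADP-ribosylation trio and 2.11 for the 5 genes of nuclear bodies and ubiquitin. The heat map of all libraries shows these blocks.

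**Figure D1:**
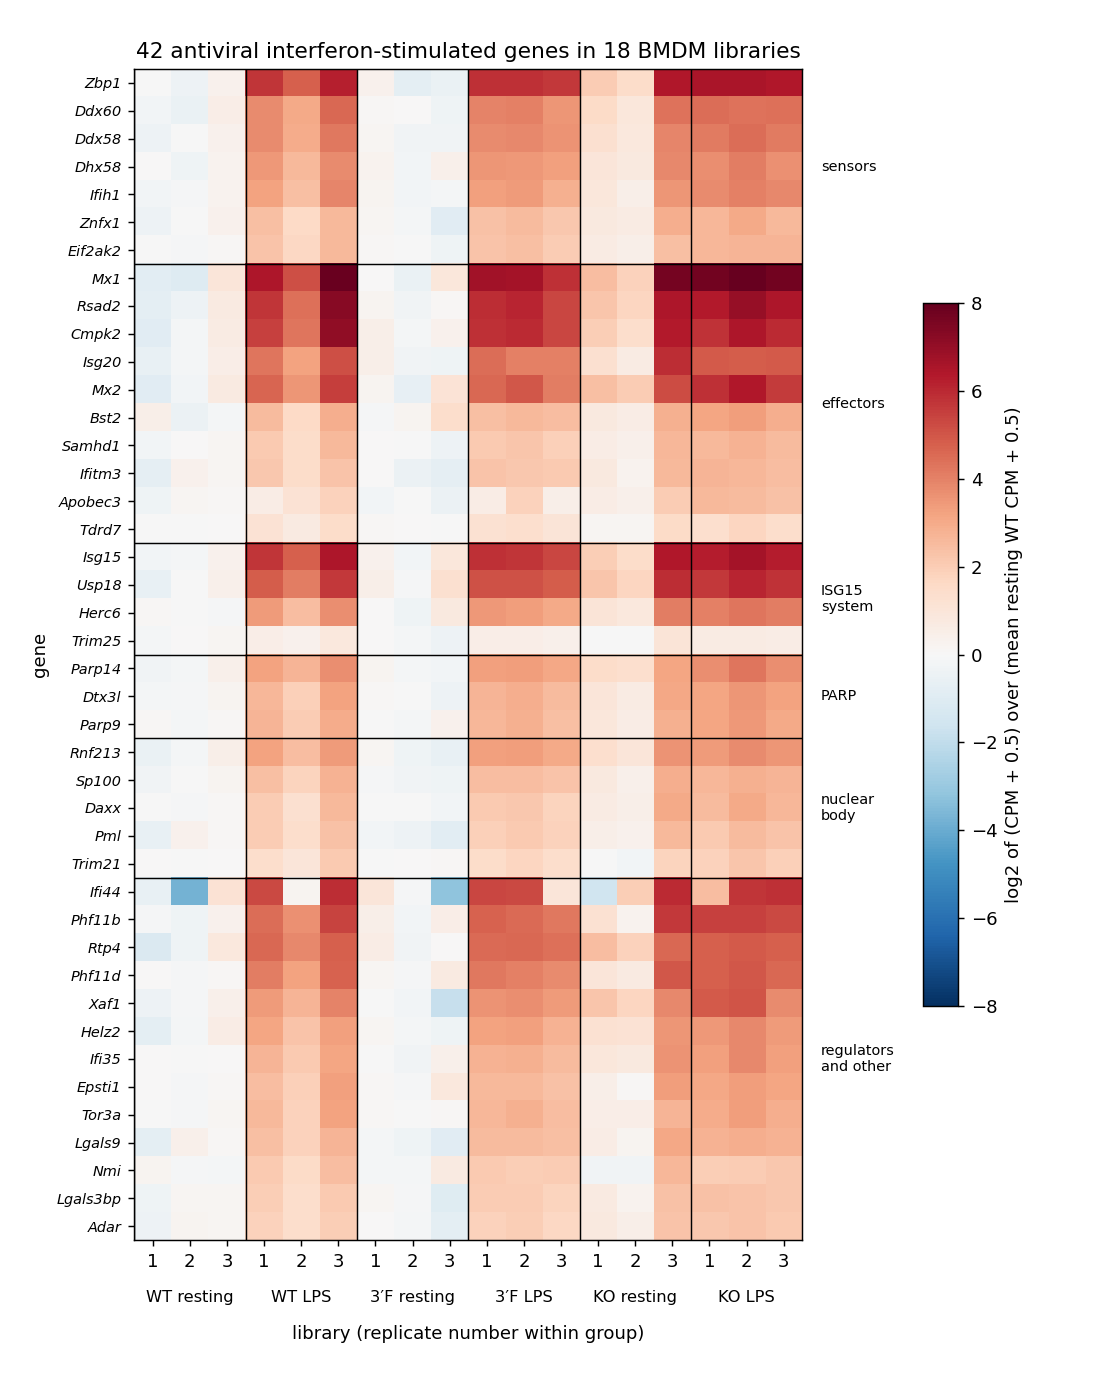
Heat map of the 42 genes (rows, grouped by role and ordered by their WT response) in the 18 libraries (columns, numbered within each group); colour is log2 of (CPM + 0.5) over (mean resting WT CPM + 0.5). The LPS libraries of each genotype and resting KO replicate 3 are red, resting KO replicates 1 and 2 pale red, and resting WT and 3′F near white, while Ifi44 is low in 1 library number of each genotype.

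The sensors detect viral nucleic acid. Ifih1 (MDA5) and Ddx58 (RIG-I) bind viral RNA and signal to interferon, Dhx58 (LGP2) and Ddx60 modulate them, Zbp1 binds Z-form nucleic acid, Eif2ak2 (PKR) halts translation on double-stranded RNA, and Znfx1 is a mitochondrial RNA sensor. Ifih1 was at 34.3, 36.7 and 47.2 CPM in resting WT replicates 1, 2 and 3 and at 371, 209 and 590.2 CPM with LPS, a log2 difference of 3.31 ± 0.61 (SE, adjusted p = 0.000829). Its 3′F levels were 46.2, 33.8 and 35.1 CPM at rest and 389, 417 and 286 with LPS, within or near the WT values in both states. Resting KO held 73.8, 55 and 468 CPM and KO with LPS 541, 649 and 562, so the first and second resting KO libraries lay above every resting WT library and the third among the LPS libraries.

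Ddx58 followed the same order. It stood at 24.8, 31.6 and 42.6 CPM in resting WT and 457, 264 and 617 CPM after LPS (log2 difference 3.76 ± 0.62 SE, adjusted p = 0.000314) and at 36.7, 27.5 and 26.7 CPM in resting 3′F with 459, 480.4 and 411 after LPS. The KO libraries held 79.6, 59.9 and 509 CPM at rest, and after LPS 598, 732 and 594. No resting and LPS libraries of WT or 3′F overlapped. Zbp1 was nearly silent at rest, with 0.854, 0.527 and 1.26 CPM in WT and 1.24, 0.29 and 0.468 in 3′F, and with LPS it reached 73, 37.5 and 103 CPM in WT and 79.4, 78.4 and 70.4 in 3′F. Its log2 differences were 6.36 ± 1.16 (SE, adjusted p = 0.000712) in WT and 6.68 ± 1.21 (SE, adjusted p = 0.000647) in 3′F, the largest in 3′F of the 42. In KO it was at 5.25, 3.29 and 115 CPM at rest and 128, 128 and 119 with LPS, where all 3 KO libraries exceeded all 3 of WT.

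Eif2ak2 was already well expressed at rest, at 57.3, 53.8 and 61.1 CPM in WT, and rose to 278, 186 and 345 CPM (log2 difference 2.23 ± 0.38 SE, adjusted p = 0.000404). In 3′F it went from 61.7, 55.2 and 45.7 to 279, 301 and 239 CPM and in KO from 92, 80.5 and 309 to 366, 377 and 377 CPM. Resting KO replicates 1 and 2 were again above every resting WT and 3′F library. Dhx58, Ddx60 and Znfx1 rose in WT by 3.41, 4.03 and 2.27 on the log2 scale, all 3 called.

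The direct effectors block steps of viral replication. Mx1 and Mx2 are dynamin-like GTPases (Mx1 is defective in most inbred strains), Rsad2 (viperin) makes a chain-terminating nucleotide from CTP, Cmpk2 is a nucleotide kinase encoded beside it, Isg20 is an exonuclease, Bst2 (tetherin) holds budding virus at the membrane, Ifitm3 hinders fusion, Samhd1 depletes dNTPs, Apobec3 deaminates retroviral DNA and Tdrd7 is a Tudor domain protein. Mx1 lies at chr16:97447035-97462907 on the minus strand (Gencode M21, GRCm38). It had the largest WT rise of the 42, from 2.04, 1.81 and 8.51 CPM in resting WT to 401, 165 and 1127 with LPS, a 142-fold rise (log2 difference 7.15 ± 1.40 SE, adjusted p = 0.00127). Even the lowest WT library with LPS was far above the highest at rest. The 3′F libraries held 4.23, 2.67 and 8.19 CPM at rest and 492, 473 and 269.7 with LPS. In KO, resting replicates had 24.7, 16 and 922 CPM and LPS replicates 979, 1391 and 969 CPM, so resting KO replicate 3 lay close to the KO LPS libraries and far from its own group.

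Rsad2 (chr12:26442746-26456452, minus strand) rose in WT from 12.4, 16.4 and 36.5 to 1148, 462 and 3434 CPM (log2 difference 6.28 ± 1.14 SE, adjusted p = 0.000692) and in 3′F from 25.4, 18.1 and 23.4 to 1336, 1488 and 892 CPM. KO libraries had 102, 72.9 and 2010.0 CPM at rest and 1778, 2736 and 1933 with LPS. Of the WT libraries with LPS, replicates 1 and 2 lay below and replicate 3 above every KO library with LPS. Cmpk2, 12751 bases away on the other strand, moved alike in WT, by 6.12 on the log2 scale. Isg20 went from 0.328, 0.602 and 1.26 to 23.5, 10.9 and 43.7 CPM in WT and from 1.19, 0.521 and 0.468 to 26.6, 19.5 and 19.6 CPM in 3′F, and its KO values were 2.47, 1.45 and 73.5 CPM at rest and 36.4, 35 and 35.8 with LPS. For Isg20 resting KO replicate 3 was the highest of all 18 libraries.

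Ifitm3, Bst2 and Samhd1, among the genes with the highest level per length at rest, rose by less than the median of the 42 on the log2 scale. Ifitm3 rose from 78.1, 161 and 141 to 578, 348 and 626 CPM in WT (log2 difference 2.03 ± 0.46 SE, adjusted p = 0.00351), from 130.4, 89.6 and 77.3 to 619, 568 and 544 CPM in 3′F and from 218, 151 and 773 to 843, 800.2 and 706 CPM in KO. KO with LPS was above every WT and 3′F library with LPS, while resting KO replicate 2 lay inside the resting WT range. Bst2 went from 78.4, 40.4 and 51.6 to 334, 174 and 429.6 CPM in WT (log2 difference 2.46 ± 0.54 SE, adjusted p = 0.00279), from 52.8, 65.8 and 150.3 to 303, 341 and 324 CPM in 3′F and from 99.5, 85.1 and 413 to 509, 569 and 432 CPM in KO. Resting 3′F replicate 3 was high for Bst2, above resting KO replicates 1 and 2. Samhd1 rose from 139, 166 and 178 to 699, 448 and 959.6 CPM in WT (log2 difference 2.12 ± 0.45 SE, adjusted p = 0.00215), from 162, 156 and 121 to 679, 736 and 610.0 CPM in 3′F and from 242, 215 and 1038 to 957, 1125 and 932 CPM in KO.

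At the low end of the response, Tdrd7 rose in WT from 84.7, 86.5 and 89.5 to 197, 145 and 244 CPM, a small but regular step (log2 difference 1.17 ± 0.28 SE, adjusted p = 0.005). Its 3′F levels were 91.6, 89 and 84.5 CPM at rest and 204, 219 and 182 with LPS. Resting KO replicates 1 and 2, at 98.6 and 97.2 CPM, were little above WT, whereas replicate 3 had 248.7 CPM. With LPS, KO held 225, 282 and 235 CPM.

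**Figure D2:**
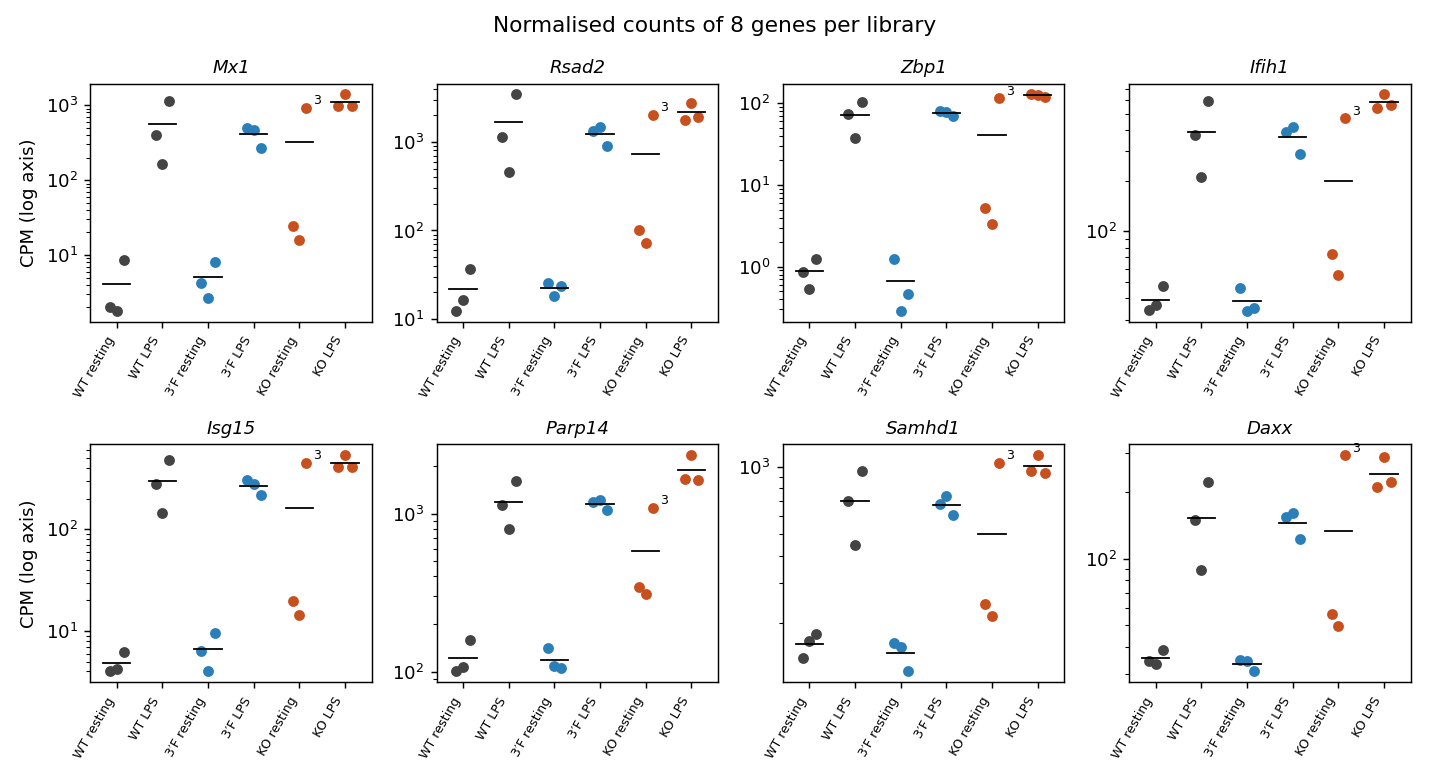
CPM on log axes for 8 of the genes in the 6 groups, 1 point per library and a bar at the group mean; the digit marks resting KO replicate 3. In each panel that point lies with the LPS libraries, for example 922 CPM of Mx1 against 24.7 and 16.0 in the other resting KO libraries.

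The ISG15 system attaches the ubiquitin-like protein ISG15 to other proteins. Isg15 encodes the modifier, Herc6 the mouse ligase, Usp18 the protease that removes it and also damps the interferon receptor, and Trim25 a ligase that acts on RIG-I. Isg15 (chr4:156199424-156200818, minus strand) rose from 4.07, 4.22 and 6.19 to 280.2, 144 and 481 CPM in WT (log2 difference 5.98 ± 1.07 SE, adjusted p = 0.000609) and from 6.38, 4.0 and 9.6 to 308, 277 and 218 CPM in 3′F (log2 difference 5.43 ± 1.05 SE, adjusted p = 0.00111). In KO it was at 19.9, 14.2 and 455 CPM at rest and 416, 538 and 409 with LPS. Both of the lower resting KO libraries exceeded all resting WT and 3′F libraries, the highest of which had 9.6 CPM.

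Usp18 rose from 2.89, 4.44 and 6.19 to 143, 85.1 and 254 CPM in WT (log2 difference 5.18 ± 0.92 SE, adjusted p = 0.000573) and from 6.38, 4.11 and 11.7 to 170.4, 169 and 141 CPM in 3′F. KO held 23.1, 15.9 and 298 CPM at rest and 251, 338 and 276 CPM with LPS. Herc6 rose by 3.31 on the log2 scale in WT. Trim25 hardly moved by comparison, from 107, 121 and 131 to 171, 155 and 218 CPM in WT, 120.1, 108 and 89 to 172, 172 and 158 CPM in 3′F and 118, 117 and 243 to 188, 193 and 184 CPM in KO. Its WT groups did not overlap, its 3′F rise was called (log2 difference 0.66 ± 0.22 SE, adjusted p = 0.0322), and resting KO replicates 1 and 2 lay inside the resting WT range.

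Parp14 is a mono-ADP-ribosyltransferase, and Parp9 acts in a complex with the ubiquitin ligase Dtx3l. The 3 lie side by side on chromosome 16, where Parp14 spans chr16:35832874-35871544. Parp14 had the smallest adjusted p of the 42 in the WT response, from 100.4, 108 and 159 to 1137, 803 and 1598 CPM (log2 difference 3.27 ± 0.41 SE, adjusted p = 2.57e-05), and in 3′F went from 140.3, 108 and 105 to 1179, 1224 and 1053 CPM. Its KO values were 345, 310.4 and 1084 CPM at rest and 1647, 2338 and 1629 with LPS. Unlike Isg20, resting KO replicate 3 stayed below every KO library with LPS for Parp14. Dtx3l and Parp9 rose in WT by 2.69 and 2.65 on the log2 scale.

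Pml and Sp100 build nuclear bodies in which Daxx, a histone chaperone, also sits, Trim21 binds antibody-coated virus in the cytosol and Rnf213 is a giant ubiquitin ligase. Daxx rose from 34.3, 33.5 and 38.8 to 149.7, 88.5 and 221 CPM in WT (log2 difference 2.11 ± 0.51 SE, adjusted p = 0.0053), from 34.7, 34.6 and 30.9 to 154, 160.1 and 122 CPM in 3′F and from 56.4, 49.7 and 293 to 212, 289 and 222 CPM in KO, where resting replicate 3 was the highest library. Trim21 went from 31.8, 29.8 and 31.2 to 83.5, 60.5 and 133 CPM in WT, 30.1, 31.8 and 32.5 to 85.1, 105 and 83.9 CPM in 3′F and 30.2, 26.4 and 106 to 114, 147 and 116 CPM in KO. For Trim21 resting KO replicates 1 and 2 were at or below the resting WT level. Pml, Sp100 and Rnf213 rose in WT by 2.01, 2.37 and 3.09.

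Of the regulators and other induced genes, Adar edits adenosine in double-stranded RNA, Nmi and Ifi35 form a complex, Lgals9 and Lgals3bp are a galectin and a galectin ligand, Helz2 is a helicase, Xaf1 antagonises an inhibitor of apoptosis, and Ifi44, Rtp4, Epsti1, Tor3a, Phf11b and Phf11d are induced genes of less settled function. Adar (chr3:89715022-89753446, plus strand) rose from 36.5, 55.8 and 54.1 to 173, 129 and 191 CPM in WT (log2 difference 1.75 ± 0.36 SE, adjusted p = 0.00176), from 49.8, 44 and 28.8 to 175, 189 and 155 CPM in 3′F and from 83.8, 67 and 240.0 to 219, 244 and 212 CPM in KO. The other 12 rose in WT by 1.85 (Lgals3bp) to 5.17 (Ifi44) on the log2 scale.

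The WT libraries with LPS differed among themselves in a common direction. Replicate 3 was the highest of the 3 for 42 of 42 genes and replicate 2 the lowest for 41, and the ratio of replicate 3 to replicate 2 had a median of 2.3 and ran from 1.4 to 52.7 (Ifi44). Leaving out any one WT library left 39 to 41 genes called for the WT response, and leaving out any one 3′F library left 37 to 41 for that of 3′F.

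No gene of the set was called between 3′F and WT. At rest 0 of 42 were called (edgeR, 0 of 42 at an unadjusted p under 0.05, 0 with DESeq2 and 0 with limma-voom), where 0.0% of all tested genes were called, and the median log2 difference was 0.00 with 21 genes positive. The extremes at rest were Pml at −0.43 ± 0.48 and Bst2 at 0.64 ± 0.52 (SE). With LPS 0 of 42 were called as well (0 at an unadjusted p under 0.05, 0 with DESeq2 and 0 with limma-voom), where 0.00881% of all genes were, the median was −0.01 and the range ran from Mx1 at −0.45 ± 1.04 to Ifitm3 at 0.16 ± 0.44. That median lay between those without WT LPS replicate 2 (−0.24, 0 of 42 genes positive) and without WT LPS replicate 3 (0.32, 42 of 42 positive), with 0 called in either. The SE of these differences had a median of 0.55 at rest and 0.51 with LPS, so differences of the order of that error could not be told from none in a single gene. That SE draws on a spread shared by all 6 groups, resting KO replicate 3 included. In neither state did the libraries of 3′F and WT separate for any of the 42, while 7.12% of all tested genes at rest and 7.87% with LPS had groups that did not overlap. The LPS responses of 3′F and WT differed for 0 of 42 (0 at an unadjusted p under 0.05, 0 with DESeq2 and 0 with limma-voom, 0.0% of all genes), with a median difference of −0.02.

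Resting KO macrophages had higher levels of the set than resting WT. Of the 42 genes, 36 were called higher and none lower, where 5.12% of all tested genes were called higher, and the median log2 difference was 2.29. The 6 not called were Ifi44, Trim25, Trim21, Nmi, Apobec3 and Tdrd7. The size of this difference was set largely by resting KO replicate 3. Its summed level of the 42 genes was 21292 CPM, against 3813 and 3160 CPM in resting KO replicates 1 and 2, 1658 to 2378 in resting WT and 8558 to 23045 in WT with LPS. Relative to the mean of the other resting KO libraries it was higher for every gene, by a median of 5.51 times and by 2.07 to 45.3 times. For 42 of 42 genes it was at or above the lowest WT library with LPS, for 25 above the highest, and for 26 above the KO library with LPS that carries the same number.

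**Figure D3:**
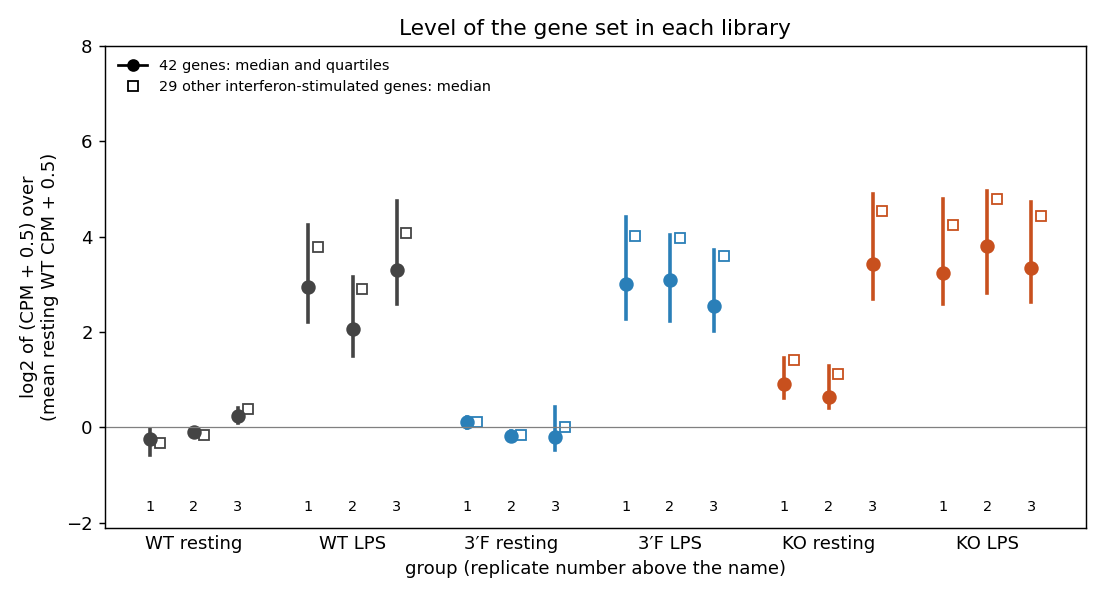
Median (filled circle) and quartiles (line) of the 42 genes in each library, as log2 of (CPM + 0.5) over (mean resting WT CPM + 0.5), with the median of 29 other interferon-stimulated genes as open squares. Resting KO replicate 3 has a median of 3.43, inside the range of the LPS libraries (2.06 to 3.80), and resting KO replicates 1 and 2 have 0.92 and 0.65, above the resting WT and 3′F libraries (−0.24 to 0.24).

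Resting KO replicate 3 did not carry the rest of the LPS response to the same degree. Among the 1777 genes called higher with LPS in WT that are neither in the set nor in the list of other interferon-stimulated genes, 723 (40.7%) were at or above the lowest WT library with LPS in this library, compared with 184 (10.4%) and 183 (10.3%) in resting KO replicates 1 and 2, 7 to 14 in resting WT, 18 to 213 in resting 3′F and 1579 to 1629 in KO with LPS. Il1b, a cytokine gene induced by NF-κB, was at 4.49 CPM there, below the 19.7 and 11.2 CPM of the other resting KO libraries and the 53.4 to 122 CPM of WT with LPS. Lcn2, which encodes an iron-scavenging protein, was at 3.93 CPM, between the resting KO libraries (0.556 and 0.0765) and WT with LPS (28.96 to 44.6). Nos2, which responds to interferon as well as to LPS, was at 9.09 CPM, inside the 3.96 to 26.9 CPM of WT with LPS. These 3 genes were chosen after their values were seen, and the 1777 can include interferon-stimulated genes that neither list names. In the same library the T cell list summed to 3.37 CPM (0.452 to 1.71 in resting WT, 1.15 to 3.37 in resting KO), with Cd3e and Cd3d at 0, and the granulocyte list to 50.7 CPM (13.7 to 20.9 in resting WT, 13.5 to 50.7 in resting KO), of which 48.3 was S100a8, with Ly6g and Elane at 0. The plasmacytoid dendritic cell list was highest of all 18 libraries there, at 127 CPM, of which 124 was Tcf4 and 0.112 Siglech. That list summed to 124 to 127 CPM in resting KO, above the 78.2 to 116 CPM of resting WT and the 72.8 to 103 CPM of resting 3′F. The part of these lists in the result was not tested.

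Without resting KO replicate 3, resting KO and WT still differed for 14 of 42 genes, all higher in KO, where 3.69% of all genes were called higher, and the median log2 difference was 0.85. The 14 were Mx2, Rsad2, Usp18, Isg15, Ddx58, Ifi35, Xaf1, Zbp1, Parp9, Parp14, Rtp4, Ddx60, Helz2 and Rnf213. Parp14 then differed by 1.42 ± 0.25 (SE, adjusted p = 0.004) against 2.24 ± 0.39 (SE, adjusted p = 0.003) with all libraries, Rtp4 by 2.28 ± 0.41 (SE, adjusted p = 0.00449) and Usp18 by 2.15 ± 0.43 (SE, adjusted p = 0.00836). Mx1, at 2.39 ± 0.72 (SE, adjusted p = 0.0554), was no longer called, and Trim21, Trim25 and Nmi were at −0.13, −0.03 and −0.30. Both of resting KO replicates 1 and 2 exceeded every resting WT library for 34 of 42 genes, where 22.3% of all tested genes did so. With all 3 KO libraries the same 34 genes separated from WT, against 13.7% of all genes, the exceptions being Ifi44, Ifitm3, Lgals9, Phf11b, Trim25, Trim21, Epsti1 and Nmi. The count of 36 also depended on the WT libraries, since it was 13 without resting WT replicate 1 and 7 without resting WT replicate 2, and it was 1 (Xaf1) when only the resting KO and WT libraries were fitted. Across those fits the median stayed at 2.14 to 2.27.

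**Figure D4:**
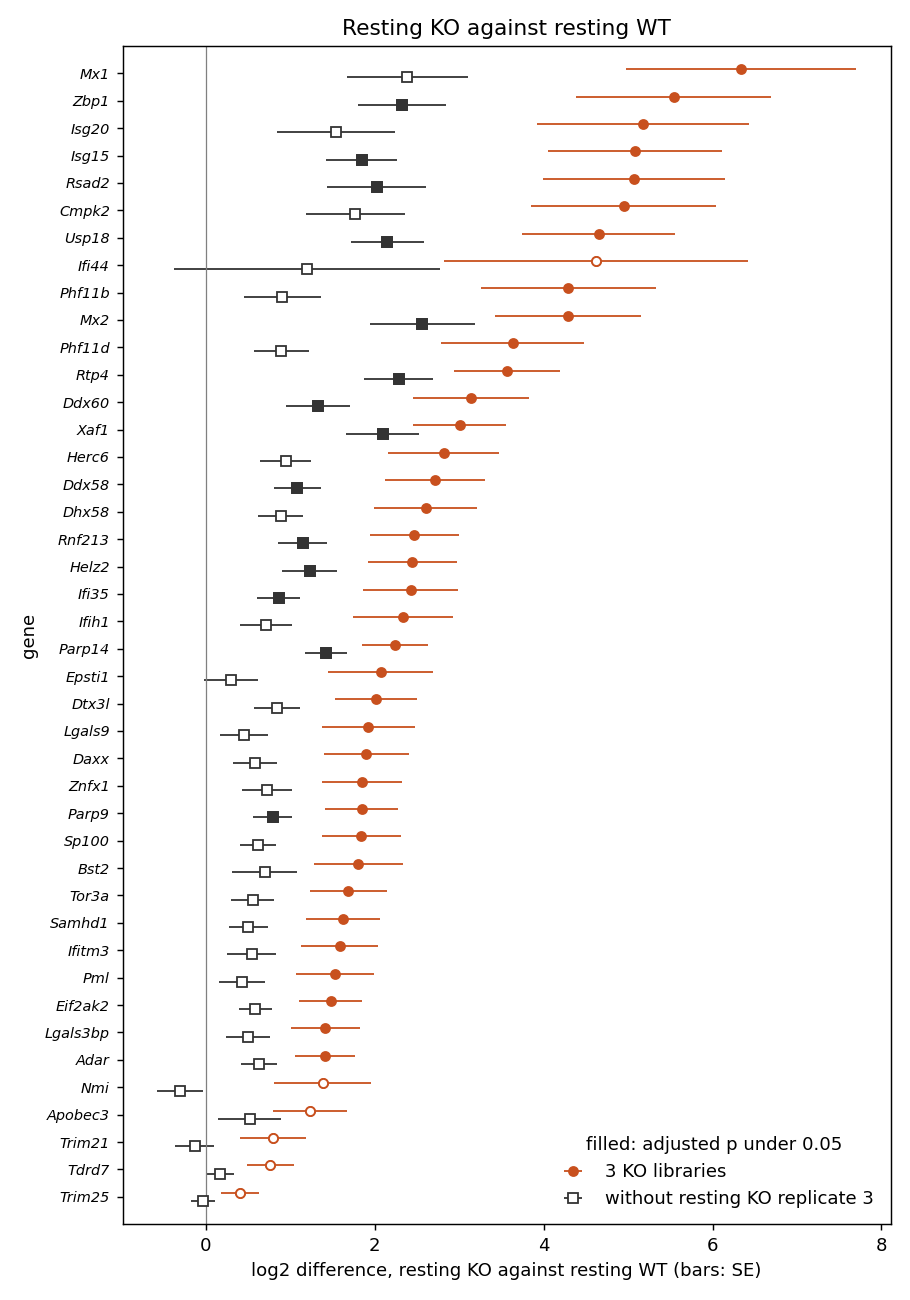
Log2 difference between resting KO and resting WT for each of the 42 genes with its SE, from all libraries (circles) and without resting KO replicate 3 (squares), and filled symbols have an adjusted p under 0.05. Every circle lies to the right of its square, 36 circles and 14 squares are filled, and the medians are 2.29 and 0.85.

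Against resting 3′F the picture was the same in size, since 3′F and WT had like levels. Resting KO was called higher for 35 of 42 genes, where 6.79% of all genes were, with a median of 2.35, and 35 genes had groups that did not overlap, against 15.8% of all genes. Without resting KO replicate 3 it was 15 genes (4.5% of all genes) at a median of 0.84, and without resting 3′F replicate 3 it was 22. Both comparisons use the same KO libraries.

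The LPS response of KO was small in the fit of all libraries. Only 9 of 42 genes were called higher, where 14.3% of all tested genes were, and the median log2 difference was 1.24. The 9 were Mx2, Ddx58, Xaf1, Eif2ak2, Parp9, Parp14, Trim21, Tor3a and Apobec3. Without resting KO replicate 3, 41 of 42 were called, where 20.4% of all genes were, with a median of 2.53, and Ifi44 was the exception. With limma-voom quality weights 42 of 42 were called, where 30.3% of all genes were, with a median of 2.35. The count was 1 without resting KO replicate 1, without resting KO replicate 2 or without KO LPS replicate 2. The response of KO differed from that of WT for 0 of 42 genes at an adjusted p under 0.05 (24 at an unadjusted p under 0.05, as were 4.93% of all genes, 0 with DESeq2 and 0 with limma-voom), where 0.00881% of all genes were called, with a median of −1.62 that became −0.20 without resting KO replicate 3.

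With LPS, most of the 42 genes had higher fitted levels in KO than in WT or 3′F, though none passed the test in the fit of all libraries. Against WT the median log2 difference was 0.52, beside a median SE of 0.52, with 41 of 42 genes positive and Nmi at −0.04, and 0 were called (edgeR, 2 at an unadjusted p under 0.05, as were 2041 of all 11357 genes, 1 with DESeq2 and 7 with limma-voom), where 1.89% of all genes were called higher. Without WT LPS replicate 2 the median against WT was 0.27, with 37 of 42 positive. Without WT LPS replicate 3 it was 0.95, with 42 of 42 positive, and 0 were called in either. All 3 KO libraries exceeded all 3 WT libraries for 16 genes, against 16.9% of all tested genes. Against 3′F the median was 0.56, again beside a median SE of 0.52, with 42 of 42 positive, and 0 were called (edgeR, 2 at an unadjusted p under 0.05, as were 16.9% of all genes, 1 with DESeq2 and 6 with limma-voom), where 1.51% of all genes were called higher. Here the groups did not overlap for 38 genes, against 19.4% of all genes, the exceptions being Cmpk2, Ifi44, Pml and Nmi. When only the KO and 3′F libraries with LPS were fitted, 30 of 42 were called higher, where 7.35% of all genes were, with Zbp1 at 0.68 ± 0.07 (SE, adjusted p = 0.000425) and Mx1 at 1.40 ± 0.21 (SE, adjusted p = 0.00255). Against WT, a fit of only the compared groups called 1 gene, Apobec3. In the fit of all libraries the SE draws on a spread shared by the 6 groups, to which resting KO replicate 3 adds. The 0 calls and the median SE of that fit are therefore not the spread among the LPS libraries alone.

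Apobec3 and Xaf1 had the largest differences between KO and WT with LPS, though neither was called. Apobec3 was at 118, 113 and 99.1 CPM in KO with LPS, 29, 43.5 and 71.2 in WT and 29.6, 72.1 and 27.3 in 3′F, so KO was above both, with a log2 difference of 1.20 ± 0.42 (SE, adjusted p = 0.118) against WT and 1.34 ± 0.42 (SE, adjusted p = 0.0936) against 3′F. At rest it was at 29.3, 26.2 and 82.6 CPM in KO, 15.2, 22 and 21 in WT and 16.9, 18.9 and 13.6 in 3′F. Among the 3′F libraries with LPS, replicate 2 was far above the other libraries, and among WT replicate 1 was the lowest. Xaf1 was at 177, 196 and 79.8 CPM in KO with LPS, 63.2, 39.4 and 93.2 in WT and 71.1, 77.8 and 63.7 in 3′F (log2 difference 1.21 ± 0.48 SE, adjusted p = 0.175 against WT). At rest Xaf1 stood at 27, 18.7 and 85.2 CPM in KO, 3.94, 4.97 and 7.45 in WT and 5.31, 4.58 and 1.17 in 3′F. KO replicate 3 with LPS lay below resting KO replicate 3 for Xaf1 and inside the WT range.

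Ifi44 split each genotype by library number. It was at 5.39, 0.151 and 19.5 CPM in resting WT and 338, 9.96 and 525 with LPS, and in 3′F at 16.5, 7.88 and 0.468 CPM at rest and 366, 346 and 16.8 with LPS. In KO it was at 2.47, 34.8 and 564 CPM at rest and 48.5, 457 and 503 with LPS. WT number 2, 3′F number 3 and KO number 1 were the lowest of their group in both states, and with LPS they lay far below the rest of their group. The rise with LPS was present in the low numbers too. Its SE was accordingly the widest of the 42 in the WT response (log2 difference 5.17 ± 1.84 SE, adjusted p = 0.0456). Ifi44 and Xaf1 were chosen for this account after their values were seen.

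**Figure D5:**
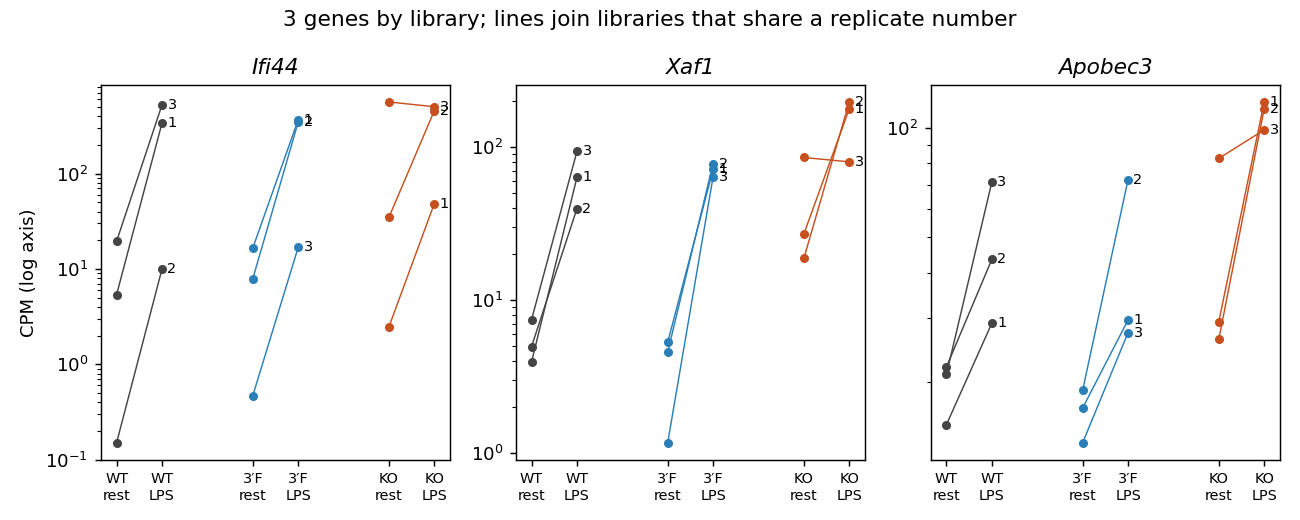
CPM of Ifi44, Xaf1 and Apobec3 on log axes, with lines that join the resting and LPS libraries of 1 genotype that share a replicate number (digits). For Ifi44 the lines of WT 2 (0.151 and 9.96 CPM), 3′F 3 (0.468 and 16.8) and KO 1 (2.47 and 48.5) run below the others of their genotype.

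The 29 other interferon-stimulated genes of the list, which hold members of the large families and regulators such as Irf1, Irf7 and Irf9, were all tested. With LPS 29 rose in WT (median 3.78) and 28 in 3′F (3.89), and 5 in KO (1.31). Of all tested genes 16.3%, 17.2% and 14.3% were called higher. In resting KO 26 were higher than in WT (median 3.27, 5.12% of all genes) and 27 higher than in 3′F (3.34, 6.79% of all genes). The medians of 3′F against WT were −0.02 at rest and −0.07 with LPS. Stat2, Irf7 and Irf9, which transmit the interferon signal to these promoters, were higher in resting KO than in WT by 2.31, 4.79 and 1.17 on the log2 scale, each of them called. These values too rested on resting KO replicate 3, since Irf7 was at 48.8, 32.0 and 815 CPM and Stat2 at 72.8, 53.8 and 357 CPM in resting KO replicates 1, 2 and 3. Without that library 13 of the 29 were called against WT (median 1.36) and 18 against 3′F (median 1.37), and 29 rose with LPS in KO (median 3.17). The shares of all genes called higher were then 3.69%, 4.5% and 20.4%. Irf7 then differed from WT by 1.92 ± 0.38 (SE, adjusted p = 0.00734), Irf9 by 0.78 ± 0.12 (SE, adjusted p = 0.00215) and Stat2, no longer called, by 0.97 ± 0.29 (SE, adjusted p = 0.0569).

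Of 21 genes for ligands, receptors and signalling, 18 passed the filter. With LPS 11 rose in WT, 10 in 3′F and 9 in KO, and none fell. The shares of all tested genes called higher were 16.3%, 17.2% and 14.3%. Socs3 and Socs1, which inhibit cytokine receptors, rose in WT by 3.67 and 3.96 on the log2 scale, whereas Tlr4, the LPS receptor, was at −0.10 (adjusted p = 0.58). In resting KO 1 of the 18 was called higher than in WT, a count near the 5.12% of all tested genes. It was Ikbke, a kinase that activates interferon regulatory factors (0.93, edgeR adjusted p = 0.0033). All 18 differences from WT were positive, with a median of 0.39 against 0.02 over all tested genes. Of them 11 had an unadjusted edgeR p under 0.05, as did 23.5% of all tested genes. Against 3′F 3 were called higher, where 6.79% of all genes were. These values include resting KO replicate 3. Ligand RNA was scarce. Ifnb1, interferon β, had 0 counts in each resting WT library and 10, 5 and 11 with LPS. It had 0, 2 and 6 counts in resting KO and 24, 30 and 13 with LPS, and 1, 0 and 2 in resting 3′F and 10, 1 and 3 with LPS. Ifna2 and Ifna4 had no count in any library and Ifng 1 count in all, which leaves the level of these ligands undetectable at this depth. The 6 counts of Ifnb1 in resting KO replicate 3 were the most of any resting library, and they are too few to rank it against the LPS libraries.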

How the data were processed

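RNA of BMDMs, freed of ribosomal RNA, was sequenced in 18 strand-specific libraries. Raw counts per gene were deposited by the authors as 1 table. They trimmed reads with cutadapt 1.8.3, removed reads of ribosomal DNA, aligned the rest to mm10 with HISAT2 2.1.0 and counted them by strand on protein-coding genes of Gencode M15 with featureCounts 1.5.3, with a minimum mapping quality. Libraries held 4071084 to 19818043 counts, and sampling error is larger in the shallower ones. Chi-square tests of counts found no replicate that was a copy of another.

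Here the counts were filtered with filterByExpr and TMM-scaled, and one edgeR 4.0.16 quasi-likelihood model (R 4.3.3) of the 6 groups was fitted to 11357 of 21734 genes. The 11 comparisons were two-sided, and Benjamini-Hochberg adjustment covered every tested gene, with a call under 0.05. The SE of a log2 difference is its size over the root of F. An exact permutation test of 3 against 3 libraries cannot go below 0.1. P-values rest on the spread between libraries within groups, from 3 mice of each genotype. The main fit shares its estimate of that spread, for each gene, over the 6 groups. The spread due to resting KO replicate 3 therefore enters the SE and p-value of every comparison, also of those that do not use that library. The main fit did not pair resting and LPS libraries, which may share mice. Its p-values for LPS responses therefore ignore any such pairing. Gene positions come from Gencode M21 of the same genome (42 of 42 IDs matched), promoters and the microRNA from RefSeq (GRCm38.p6). The alternatives were DESeq2 1.42.0, RLE scaling, no filter, only the compared groups, limma-voom 3.58.1 with quality weights, a replicate block and leaving out each library. Library medians use log2(CPM + 0.5). The model was also run on simulated counts with known changes in WT with LPS only. Those counts held no outlying library, so that run does not show how the model handles resting KO replicate 3. The 42 genes, the role groups and the other lists were chosen with earlier results of these data known. Values in every library are given for Mx1, Rsad2, Isg15, Usp18, Ifih1, Ddx58, Zbp1, Eif2ak2, Ifitm3, Bst2, Samhd1, Parp14, Daxx and Adar, for the 3 largest and 3 smallest absolute differences in the WT LPS response and in resting KO against WT, and for any gene called in an interaction or between 3′F and WT, and all other members are given by range or difference.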

Additional observations from a re-analysis of the deposited data

How the results depend on the processing

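Counts of called genes, of 42, moved as follows, and no difference called with all libraries changed sign. The LPS response in KO was called for 0 genes when only the compared groups were fitted, 42 with limma-voom quality weights and 41 without both resting KO replicate 3 and resting 3′F replicate 3, an alternative chosen after seeing the data. Resting KO against WT gave 1, 19 and 20 in the same 3 fits, and resting KO against 3′F gave 0 with the compared groups and 13 in the last. KO against WT with LPS gave 1 with DESeq2, 1 with the compared groups, 7 with quality weights and 4 in the last, and KO against 3′F with LPS gave 1 without the filter, 1 with DESeq2, 30, 6 and 6. Leaving out 1 library at a time gave 39 to 41 genes for the LPS response in WT, 37 to 41 in 3′F, 1 to 41 in KO, 7 to 39 for resting KO against WT, 15 to 38 for resting KO against 3′F, and 0 to 1 for KO against 3′F with LPS. The cause was not tested.

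The labels tie no replicate number to an animal. Deviations of same-numbered resting and LPS libraries of 1 genotype correlated at 0.03 to 0.32, over 0.1 in 5 of 9 pairs. Each library was also set against the 3 libraries of the other state of its genotype. Of the 18 libraries, 15 correlated best with the 1 of those 3 that carries their own number. With the number within each genotype as a block, the LPS response in KO was called for 37 genes (median log2 difference 1.8, against 1.24 without the block), and in WT and 3′F for 42 each. Comparisons of genotypes within a state used a block shared by the genotypes, although their mice differ. Same-numbered libraries of 2 genotypes correlated at −0.29 to 0.21. Resting KO against WT was then called for 30 and resting KO against 3′F for 34. The other 6 comparisons with either block gave 0. Low counts of Ifnb1 and the 4071084 counts of resting 3′F replicate 3 limit what depth can show.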
